A study of Mus musculus with 6 samples.

Results

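The 10 genes described here encode NRF2 (Nfe2l2), its inhibitor KEAP1 (Keap1) and 8 antioxidant enzymes or enzyme subunits (Hmox1, Nqo1, Gclc, Gclm, Sod1, Sod2, Cat and Gpx1). They were chosen by symbol as a family, not by their values, although earlier results of these data were known. Each matched a single row among the 26789 genes of the deposited table. RNA-seq had been performed on microglia, the macrophages that reside in brain tissue, from the rostral nucleus of the solitary tract (NST), where taste nerves terminate, of mice on postnatal day 15 (P15). The groups were the offspring of mothers given a low sodium diet from embryonic day 3 to 12 (E3–E12 diet mice, labelled Low Sodium Diet (Maternal)) and of mothers given the control diet, with 3 libraries each. Each library pooled 6 littermates of 1 litter, so the litter is the replicate. After the diet window both groups received standard chow, and males and females were used. The strain is stated as C57Bl/6 for the controls of the anatomical work and not for these litters, and the labels name no allele or drug. The paper describes sorting with magnetic beads against CD11b, whereas the series description names laser microdissection, so how the cells were obtained is uncertain.

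NRF2 is a transcription factor that is held in the cytoplasm and marked for degradation by KEAP1, a sensor of reactive electrophiles that works with a CUL3 ubiquitin ligase. When KEAP1 is modified, NRF2 accumulates, pairs with a small MAF protein and binds antioxidant response elements in DNA, which drives genes of glutathione synthesis, heme breakdown and quinone reduction. Microglia release superoxide through NADPH oxidase, and superoxide dismutases, catalase and glutathione peroxidases remove superoxide and the hydrogen peroxide made from it.

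The 7 microglial markers reported here (Cx3cr1, P2ry12, Tmem119, Csf1r, Aif1, Fcrls and Siglech) were above 0 in every library, with a summed level between 75754 and 438424 normalized counts. Markers of other brain cells were present too, the 6 oligodendrocyte markers summing to between 4422 and 41069 and the 6 choroid plexus markers to between 58.0 and 40439.5. Control replicate 2 stood apart, with 10640 genes listed at 0 (3459 to 7135 in the other libraries), the highest microglial sum, a neutrophil sum of 3229 (419 to 643 in the others) and the lowest endothelial sum (4548 against 8097 to 13108). The endothelial markers did not move together there, since Flt1, Vwf, Cdh5 and Slco1a4 were at their lowest and Cldn5 and Pecam1 at their highest. Results are therefore also given without it where it moves them. By mean log2 level, 0 of 7 microglial, 0 of 6 border macrophage and 0 of 6 oligodendrocyte markers were higher in E3–E12 diet mice. The same held for 0 of 4 erythroid and 0 of 5 neutrophil markers tested and for 1 of 6 of choroid plexus. Of the others, 4 of 6 endothelial, 4 of 6 neuronal and 6 of 6 astrocyte markers were higher. The microglial, neutrophil and astrocyte counts, among others, depend on control replicate 2, which also had the lowest astrocyte sum (1731). Control replicates 1 and 3 had microglial sums of 75754 and 178501, against 82528, 186043 and 237453 in E3–E12 diet replicates 1 to 3. Their neutrophil sums were 572 and 419, against 643, 562 and 634. Their astrocyte sums were 8896 and 5377, against 9119, 4238 and 4576. Because these are bulk samples, fewer cells of a type and less RNA per cell cannot be told apart.

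The sequence that NRF2 is known for binding, searched as TGACNNNGC on both strands, was looked for from 250 bases before to 50 bases after each annotated start site in RefSeq (GRCm38.p6). Of the 10 genes, 8 had such a window, and 3 of them, Nfe2l2, Gclm and Sod1, held a match, against 12.4% of all 32851 promoter windows. Hmox1 and Gclc had no entry. The matches are shown because they are the members with this element in the window searched, beside that of Prdx1, a peroxiredoxin gene of the wider pathway. Each is written along the gene's strand, with the element in capitals.
Nfe2l2 (chr2:75704885-75704913, minus strand): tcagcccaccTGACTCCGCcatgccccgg
Gclm (chr3:122245413-122245441, plus strand): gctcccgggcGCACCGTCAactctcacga
Sod1 (chr16:90220696-90220724, plus strand): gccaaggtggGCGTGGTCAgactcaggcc
Prdx1 (chr4:116685456-116685484, plus strand): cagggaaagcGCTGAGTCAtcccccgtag
The first base of the element lay 240 bases before the start site in Nfe2l2, 134 in Gclm, 56 in Sod1 and 133 in Prdx1. In Gclm, Sod1 and Prdx1 it is read from the opposite strand, so it appears above as its reverse complement. Of these 4, only that of Prdx1 overlaps the AP-1 motif TGANTCA, which is present in 7.81% of all windows. A match describes these letters and not a bound site, and no binding was measured here.

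Per kilobase of the principal annotated transcript, Nfe2l2 had the highest level of the 10 genes in every library, with a median of 2805 normalized counts per kb (range 1962 to 5400.4). Hmox1 (median 1244) and Sod1 (1234) came next and could not be ordered, since each was the higher of the pair in 3 of the 6 libraries. Gpx1 followed with a median of 789.9 normalized counts per kb and Cat with 398, and Gpx1 exceeded Cat in 4 libraries, the exceptions being control replicates 1 and 3. Gclc had a median of 241, Sod2 of 73.1 and Gclm of 33.7 normalized counts per kb. Nqo1 (7.29) and Keap1 (3.66) were the lowest, in positions 9 and 10 in every library. The gene for NRF2 and that for its inhibitor thus lay at opposite ends of the order in both diets. With lengths taken over all annotated exons instead, Sod1 moved from position 3 to 6, since its exons add up to 3970 bases against 641 in the principal transcript, and only Gpx1, Cat and Gclc changed place with it. The authors' scaling differs from gene to gene within a library, so levels of different genes can be compared only roughly.

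**Figure D1:**
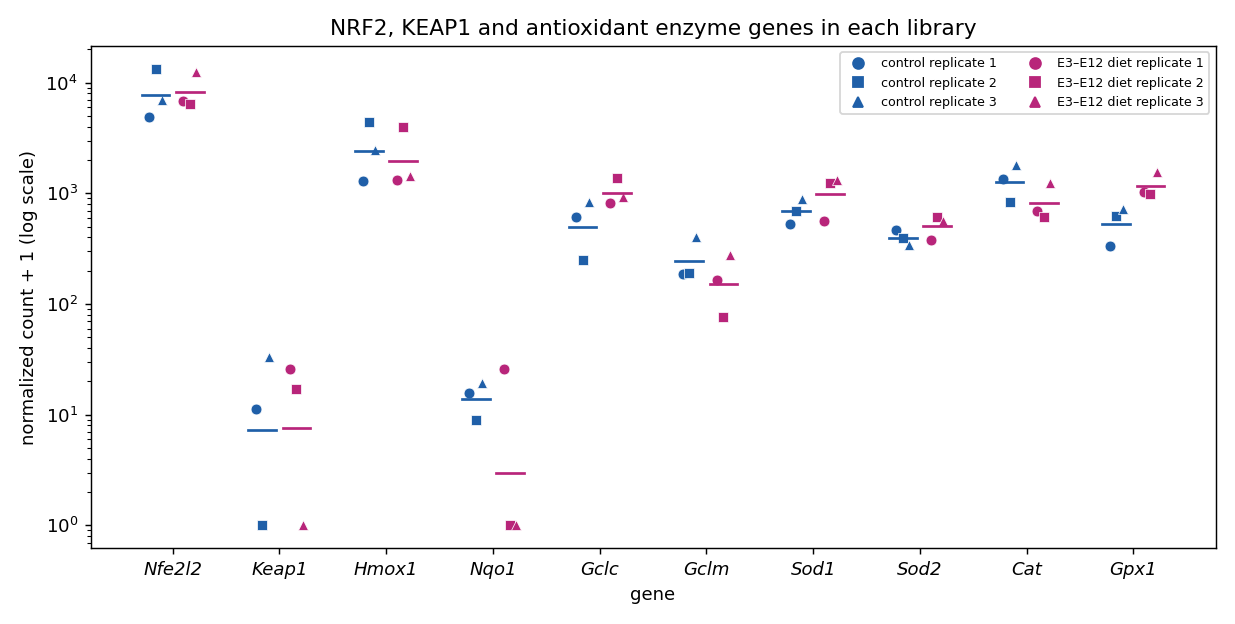
Normalized count + 1 (log scale) of each gene in each of the 6 libraries, blue for control and magenta for E3–E12 diet, with the symbol giving the replicate and the horizontal lines the mean on the log2 scale. Gpx1 is the gene whose magenta points all lie above its blue points, and Keap1 and Nqo1 reach 0 in some libraries.

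The diet comparison asked which of these genes differed in P15 microglia before pruning of the taste nerve terminals. It was made on log2(normalized count + 1) with limma over the 18007 genes whose mean reached 10 normalized counts, with p-values adjusted by Benjamini-Hochberg and a threshold of 0.1. All 10 genes passed the filter, Keap1 and Nqo1 narrowly. None of the 10 passed the adjusted threshold (0 genes, adjusted p = 0.999 for each from limma), as was the case for all genes tested, of which 0% passed. The study, using DESeq2 at the same threshold on these libraries, listed genes in both directions, Gpx1 among them. Why the calls differ was not tested. With an unadjusted p under 0.05 there was 1 of the 10, Gpx1, where 1.49% of all genes tested had such a p. Of the 10 genes, 6 had a higher and 4 a lower mean log2 level in E3–E12 diet mice, and 54.4% of all genes tested were higher. Their median log2 fold change was 0.08, beside 0.09 for all genes tested. The groups did not overlap in 1 gene, Gpx1, which was higher in E3–E12 diet mice, beside 5.90% of all genes tested in either direction, 2.99% higher and 2.91% lower.

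Gpx1 encodes glutathione peroxidase 1, an abundant enzyme of the cytosol, which uses glutathione to reduce hydrogen peroxide (chr9:108338903-108340343, GRCm38, plus strand). Control replicates 1 to 3 had 335, 622 and 717 normalized counts of Gpx1, and E3–E12 diet replicates 1 to 3 had 1029, 977 and 1567. Every E3–E12 diet library was thus above every control. The means were 558 ± 199 in controls and 1191 ± 327 in E3–E12 diet mice (SD, n = 3 libraries each), giving a log2 fold change of 1.13 (standard error 0.51, 95% interval 0.02 to 2.25). The unadjusted p from limma was 0.0473, and an exact permutation test, two-sided, gave p = 0.1, which is as small as it can be with 3 libraries a group. Without control replicate 2 the log2 fold change was 1.25, and without any other single library it lay between 0.80 and 1.35. Without a mean-variance trend in limma the unadjusted p of Gpx1 was 0.103. The summed microglial markers overlapped between groups (75754 to 438424 in controls and 82528 to 237453 in E3–E12 diet mice). None of the 7 markers had a higher mean log2 level in E3–E12 diet mice, a direction that depends on control replicate 2 (sum 438424). Without that library the control sums were 75754 and 178501, against 82528, 186043 and 237453 in E3–E12 diet replicates 1 to 3. The part of the microglial markers in the Gpx1 values was not tested. The study listed Gpx1 as higher in E3–E12 diet mice with DESeq2 at an adjusted p under 0.1, a call not reached here. That list was drawn from these same libraries, so the direction of Gpx1 in it is not independent evidence.

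Cat encodes catalase, the peroxisomal enzyme that breaks down hydrogen peroxide without glutathione (chr2:103453849-103485160, minus strand). It had 1346, 836 and 1816 normalized counts in control litters, against 689, 617 and 1246 after the E3–E12 diet. The groups overlapped, because E3–E12 diet replicate 3 lay above control replicate 2. The log2 fold change was -0.65 (standard error 0.52, 95% interval -1.78 to 0.48, exact permutation p = 0.2). Erythroid cells are rich in catalase, and the 5 erythroid markers (Hba-a1, Hba-a2, Hbb-bs, Hbb-bt and Alas2) summed to 169, 11.2 and 219 normalized counts in control litters, against 54.1, 2.31 and 95.5 after the E3–E12 diet, with all but Hbb-bs listed at 0 in at least 1 library. The 3 libraries with the most Cat were also the 3 with the highest erythroid sum, and the part of those cells in the Cat values was not tested.

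Gclc and Gclm encode the catalytic and the modifier subunit of glutamate-cysteine ligase, the enzyme that limits the rate of glutathione synthesis. Gclc (chr9:77754535-77794485, plus strand) had 607, 247 and 834 normalized counts in control litters, against 815, 1366 and 918 after the E3–E12 diet. The groups overlapped only through control replicate 3 and E3–E12 diet replicate 1. Its log2 fold change was 1.01 (standard error 0.57, 95% interval -0.24 to 2.26, unadjusted p = 0.103 from limma, exact permutation p = 0.2). Its lowest value was in control replicate 2, and without that library the log2 fold change was 0.50. Gclm (chr3:122245557-122270732, plus strand) had a lower mean after the diet, with 185, 191 and 399 normalized counts in control litters, against 164, 74.9 and 278 after the E3–E12 diet. The groups overlapped (log2 fold change -0.68, standard error 0.70, 95% interval -2.22 to 0.86, exact permutation p = 0.4). Without E3–E12 diet replicate 2, which had the lowest Gclm of the 6 libraries, the log2 fold change was -0.18. Exons of 2 other annotated genes, Gm17494 and Gm6061, overlap Gclm, and 4.58% of the 50-base windows of Gclm are found elsewhere among annotated genes.

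Sod1 and Sod2 encode the superoxide dismutases of the cytosol and of the mitochondrial matrix, which turn superoxide into hydrogen peroxide. Sod1 (chr16:90220754-90226329, plus strand) had 533, 689 and 893 normalized counts in control litters, against 567, 1253 and 1332 after the E3–E12 diet. E3–E12 diet replicates 2 and 3 lay above all controls, whereas replicate 1 lay among them (log2 fold change 0.51, standard error 0.52, 95% interval -0.64 to 1.66, exact permutation p = 0.3). Sod2 (chr17:13006846-13040063, plus strand) had 461, 396 and 344 normalized counts in control litters, against 379, 610.0 and 564 after the E3–E12 diet. It showed the same arrangement, with E3–E12 diet replicates 2 and 3 above all controls, and was the least variable of the 10 genes, its highest library being 1.77 times its lowest (log2 fold change 0.35, standard error 0.50, 95% interval -0.76 to 1.46, exact permutation p = 0.3). Of the 50-base windows of Sod2, 21.0% also occur in other annotated genes, so its level is uncertain, as is, to a lesser degree, that of Sod1, with 3.42% shared with the annotated gene Gm8566.

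Nfe2l2 itself (chr2:75675513-75704641, minus strand) had 4855, 13366 and 7048 normalized counts in control litters, against 6837, 6460.0 and 12379.5 after the E3–E12 diet. The groups were interleaved, with the highest value in control replicate 2 and the next in E3–E12 diet replicate 3, and the means were 8423 ± 4419 and 8559 ± 3314 (log2 fold change 0.09, standard error 0.57, p = 1.0 by exact permutation). The 95% interval from -1.16 to 1.33 still allowed a change of more than 2-fold either way. Without control replicate 2 the log2 fold change was 0.48, and without control replicate 1 it was -0.25. Keap1 (chr9:21229730-21239361, minus strand) had 10.4, 0 and 32.4 normalized counts in control litters, against 25.0, 16.1 and 0 after the E3–E12 diet. It was listed at 0 in 1 library of each diet, so its log2 fold change of 0.08 had a standard error of 1.96 and says little, and it became -1.35 without control replicate 2. An antisense gene, Gm16754, overlaps its exons, and 7.78% of its 50-base windows are shared with it.

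Hmox1 encodes heme oxygenase 1, the inducible enzyme of heme breakdown (chr8:75093621-75100589, plus strand). It had 1290.4, 4385 and 2459.6 normalized counts in control litters, against 1329, 3989 and 1445 after the E3–E12 diet. Replicate 2 was the highest and replicate 1 the lowest in each group, and the groups overlapped throughout (log2 fold change -0.29, standard error 0.61, 95% interval -1.63 to 1.05, exact permutation p = 0.8). Without control replicate 2 the log2 fold change was 0.15. Macrophages are known to express Hmox1, and the 6 markers of those at the brain's borders (Mrc1, Cd163, Pf4, Lyve1, Cbr2 and F13a1) summed to 5694, 20542 and 7943 normalized counts in control litters, against 5144, 9020.5 and 9489 after the E3–E12 diet, highest in control replicate 2 as for Hmox1. Below that library the orders differed, since E3–E12 diet replicate 2 was second in Hmox1 and E3–E12 diet replicate 3 second in the sum. Control replicate 2 also had the highest microglial sum. The part of the border macrophages in the Hmox1 values was not tested. Nqo1 encodes the quinone reductase that is the textbook target of NRF2 (chr8:107388225-107403206, minus strand). It had only 14.7, 7.90 and 18.4 normalized counts in control litters, against 24.9, 0 and 0 after the E3–E12 diet. Its highest and its lowest values were thus both in E3–E12 diet mice, and its log2 fold change of -2.24 (standard error 1.83, 95% interval -6.26 to 1.79, exact permutation p = 0.4) rests on the libraries listed at 0. With a pseudocount of 10 in place of 1 it was -0.62.

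**Figure D2:**
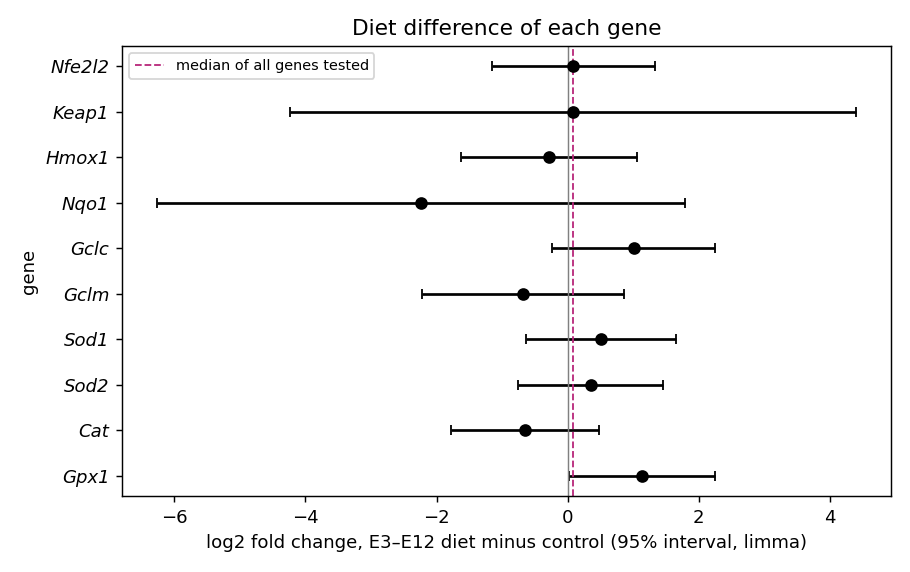
Log2 fold change of each gene (points, E3–E12 diet minus control) with its 95% interval from limma, and the median of all genes tested as the dashed line at 0.09. The interval of Gpx1 starts at 0.02 and those of the other 9 genes include 0, with the widest for Keap1 and Nqo1.

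**Figure D3:**
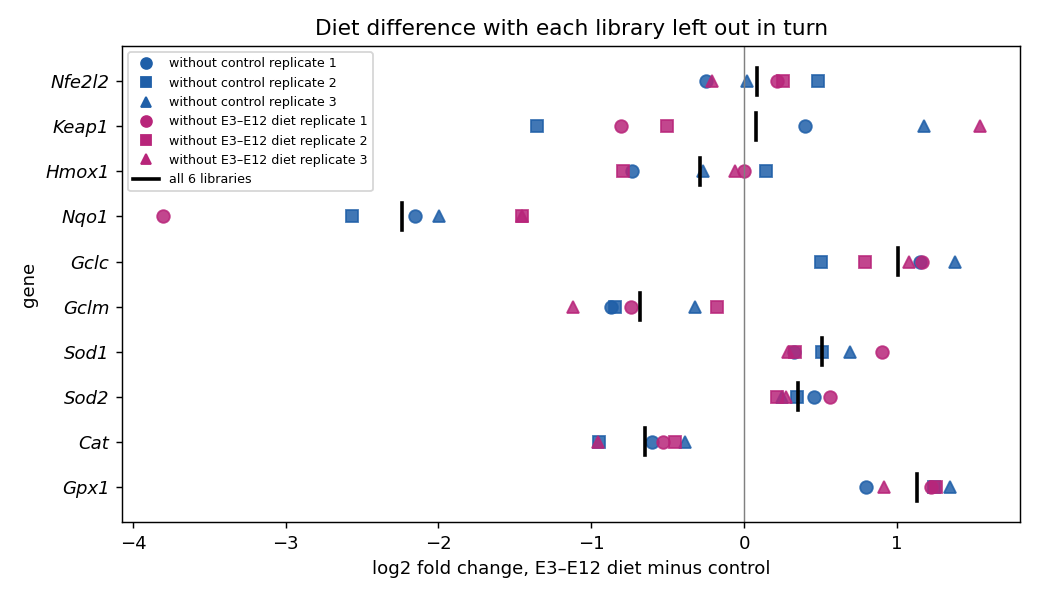
Log2 fold change of each gene with all 6 libraries (black bars) and without each library singly (symbols named in the key). Gpx1, Gclc, Sod1 and Sod2 stay above 0 and Nqo1, Gclm and Cat below 0, whereas Nfe2l2, Keap1 and Hmox1 cross 0.

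Ratios of 2 genes within a library do not depend on a scaling shared by all genes of that library. The authors' scaling also differs from gene to gene, and that part does not cancel in a ratio. Among the 45 pairs of the 10 genes, the ratio did not overlap between diets in 5 pairs (11.1%), where 6.48% of all pairs of the 18007 genes did not overlap. The 5 pairs were looked at after their values were seen, they share genes, and 3 of them contain Gpx1. Any pair without overlap has an exact permutation p of 0.1 here, so that p adds nothing to their choice. The ratio of Cat to Gpx1 was 4.02, 1.34 and 2.53 in control replicates 1, 2 and 3, against 0.670, 0.632 and 0.795 after the E3–E12 diet. All E3–E12 diet ratios thus lay below the lowest control ratio, although per kilobase Gpx1 was above Cat in control replicate 2 too. The difference was -1.78 in the mean log2 ratio (SD 0.79 in controls and 0.17 in E3–E12 diet mice, exact permutation p = 0.1, the smallest possible). It was -2.19 without control replicate 2, the strongest of the values with a library left out, and -1.41 at the weakest. The ratio of Gclc to Gclm was 3.27, 1.29 and 2.09 in control litters, against 4.95, 18.2 and 3.30 after the E3–E12 diet, and the groups were separated by a narrow margin between control replicate 1 and E3–E12 diet replicate 3. The difference in the mean log2 ratio of Gclc to Gclm was 1.69, and 0.97 at the lowest with a library left out (exact permutation p = 0.1). The ratio of Nfe2l2 to Gpx1 was 14.5, 21.5 and 9.83 in control litters, against 6.64, 6.61 and 7.90 after the E3–E12 diet. The remaining pairs were Gclc to Cat, with a difference in the mean log2 ratio of 1.66, and Gclm to Gpx1, with -1.81.

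**Figure D4:**
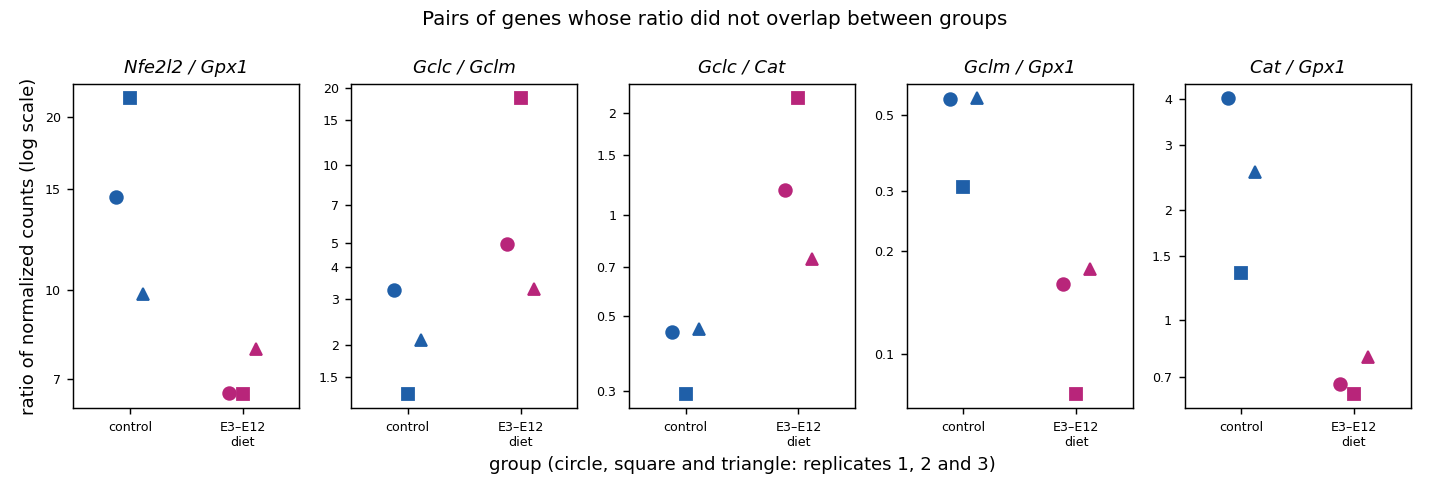
Ratio of the normalized counts of 2 genes within each library (log scale) for the 5 pairs whose groups did not overlap, control in blue and E3–E12 diet in magenta, with circles, squares and triangles for replicates 1, 2 and 3. Cat / Gpx1 runs from 1.34 to 4.02 in controls and from 0.632 to 0.795 in E3–E12 diet mice.

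A wider list of 56 genes of the same pathways was examined beside these 10. Of these, 55 were in the table (Txnrd1 matched no row) and 53 passed the filter. None passed the adjusted threshold (0 genes, adjusted p = 0.999 for each from limma), 1 had an unadjusted p under 0.05 (1.49% of all genes tested had one), and the mean log2 level was higher after the E3–E12 diet in 31 and lower in 22 (54.4% of all genes tested were higher), with a median log2 fold change of 0.15. There was no overlap of the groups for 4 genes of the 53, where 5.90% of all genes tested did not overlap, so nothing is read from that count. Of the 4, Gsr, Slc3a2 and Txn2 were higher and Tkt was lower. Of the 16 tested genes of glutathione synthesis and use, 12 were higher and 4 lower (median log2 fold change 0.55), and of the 11 of the thioredoxin and peroxiredoxin list 8 were higher and 3 lower (median 0.51). The 12 NRF2 partners and regulators were split 6 to 6 (median 0.01), the 6 genes of NADPH supply 1 to 5 (median -0.28), and the 8 genes of heme breakdown and other NRF2-linked targets 4 to 4 (median 0.34). Whether these splits differ from that of all genes was not tested, and the values describe these libraries only.

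Gsr, glutathione reductase, which returns the glutathione oxidised by GPX1 to its reduced form, had the lowest unadjusted p among these genes (0.00596 from limma, with an exact permutation p of 0.1). It had 132, 53.0 and 59.0 normalized counts in control litters, against 365, 221 and 1101 after the E3–E12 diet. The lowest of the E3–E12 diet values exceeded the highest control, and E3–E12 diet replicate 3 was far above the rest (log2 fold change 2.57, standard error 0.76, 95% interval 0.90 to 4.23). The log2 fold change of Gsr was between 1.92 and 3.07 with a library left out, and without E3–E12 diet replicate 3 its unadjusted p from limma was 0.0523. Like Gpx1, Gsr was listed by the study from these libraries at an adjusted p under 0.1, a call not reached here. Its direction is therefore not independent evidence either. Sod3, the extracellular superoxide dismutase, had 474, 61.7 and 413 normalized counts in control litters, against 1046, 919 and 443 after the E3–E12 diet (log2 fold change 1.71, standard error 0.78, unadjusted p = 0.0514 from limma). The groups overlapped, and the log2 fold change was 0.76 without control replicate 2. Bach2, a repressor of the BACH family, had 720.5, 5479 and 1266 against 677, 1232 and 630.3 normalized counts, the lower log2 level in E3–E12 diet mice resting on control replicate 2 (log2 fold change -1.08, and -0.24 without it). Idh1, an enzyme that makes NADPH, had 154, 287 and 133 against 49.3, 163 and 62.7 normalized counts, a log2 fold change of -1.17 (standard error 0.76), with overlap between groups.

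Among the partners of NRF2, Bach1, which competes with it for the same DNA element, had 1854, 519.6 and 1819 normalized counts in control litters, against 451, 2469 and 1729 after the E3–E12 diet. Mafg, a small MAF partner, had 1393, 1790.4 and 1777 against 1209, 3413 and 1161. The log2 fold changes of Bach1 and Mafg were 0.05 and 0.04, and their groups overlapped. Cul3, the scaffold of the KEAP1 ubiquitin ligase, had a log2 fold change of -0.01 (standard error 0.62), and Sqstm1, the autophagy adaptor that can sequester KEAP1, one of -0.08 (standard error 0.57). Of the genes of glutathione supply, Slc7a11, the cystine transporter subunit, had a log2 fold change of 0.15 (standard error 0.65) and Slc3a2, the partner chain of that transporter, lay above all controls in the E3–E12 diet libraries, with 517, 227 and 642 against 787, 698 and 1269.7 normalized counts, a log2 fold change of 1.07 (standard error 0.56, and 0.62 without control replicate 2). Gss, glutathione synthetase, had a log2 fold change of 1.37 (standard error 1.02) that was 0.25 without control replicate 2, where it was at 21.6 normalized counts. Gpx4, the peroxidase that acts on membrane lipids, had 96.5, 0 and 231 normalized counts in the controls and between 8.89 and 77.6 in the E3–E12 diet mice. Of the 50-base windows of Gpx4, 34.7% are also found in further annotated genes.

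Of the thioredoxin system, Txn1, the cytosolic thioredoxin, had a log2 fold change of -0.44 (standard error 0.68), Prdx1, the peroxiredoxin whose promoter is shown above, one of -0.03 (standard error 0.55), and Srxn1, sulfiredoxin, which repairs oxidised peroxiredoxins, one of 0.51 (standard error 0.93). The groups overlapped in all 3. Txn2, the mitochondrial thioredoxin, had 199.8, 189 and 196 normalized counts in control litters, against 342, 215 and 586 after the E3–E12 diet, without overlap (log2 fold change 0.84, standard error 0.59). G6pdx, which makes NADPH in the pentose phosphate pathway, had a log2 fold change of 0.26 (standard error 0.59), and Tkt, transketolase of the same pathway, had 498, 836 and 431 against 329, 428 and 390.3, with all E3–E12 diet values below the controls (log2 fold change -0.57, standard error 0.51, and -0.28 without control replicate 2). Blvrb, biliverdin reductase B, had a log2 fold change of 0.81 (standard error 0.86). Slc3a2, Txn2 and Tkt are named here because their groups did not overlap, which was seen in their values.

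**Figure D5:**
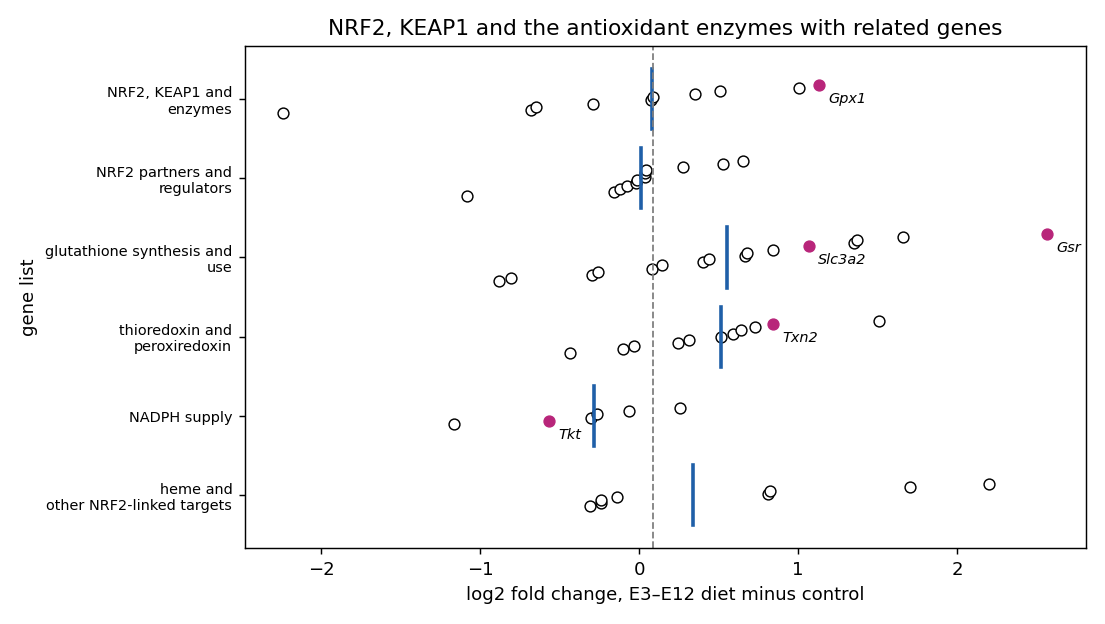
Log2 fold change (E3–E12 diet minus control) of each tested gene by list, with filled, named points for genes whose groups did not overlap, blue bars for the list medians and the dashed line for the median of all genes tested, 0.09. The medians run from -0.28 for NADPH supply to 0.55 for glutathione synthesis and use.

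The genes whose levels moved most like a member over the 6 libraries were sought among all 18007, after each gene's log2 level had been centred on its own mean, by the mean absolute difference from the member. For Nfe2l2 these were Psma6, Lrrc61 and Cbr1, with differences of 0.066, 0.085 and 0.086 on the log2 scale. Cbr1, a carbonyl reductase, had 97.9, 287 and 168 normalized counts in control litters, against 159, 138 and 241 after the E3–E12 diet. For Hmox1 they were Casc3, Dhx33 and Abhd13 (0.15, 0.16 and 0.17). For Gpx1 they were Tspo, Chmp6 and Fadd (0.16, 0.18 and 0.19). Tspo, the translocator protein of the outer mitochondrial membrane, had 30.4, 62.3 and 58.7 normalized counts in control litters, against 127, 105 and 139 after the E3–E12 diet, with all E3–E12 diet libraries above all controls, as for Gpx1. With 6 libraries and so many genes such likeness is a description only.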

How the data were processed

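Microglial RNA from 3 control and 3 E3–E12 diet litters (6 libraries) was amplified and sequenced by the authors. The authors deposited normalized counts per gene, a signal that is never negative and not whole, for 26789 genes, of which 26507 matched a symbol in GENCODE M21. The submitters' processing notes name FastQC, STAR, featureCounts, DESeq2 and GRCm38, without versions. Between 92.6% and 99.2% of the nonzero values of a library were distinct, so the scaling differs between genes, whole reads could not be recovered, and the depth behind a value is unknown. The library totals were between 9407141 and 17204618 normalized counts. Counting by strand is not given in the sources used here. The table's name refers to sva, a surrogate variable method that the paper's methods do not describe. How these steps affected single genes was not tested.

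From these values, log2(normalized count + 1) was fitted with limma 3.58.1 in R 4.3.3, with a mean-variance trend, over 18007 genes with a mean of at least 10. Exact permutation tests were two-sided. The fit was tested on simulated negative binomial counts, with 1 setting of spread for every gene and no differences in library total. That test therefore does not show how the fit performs on the scaled values used here. Of the microglial markers chosen, 1 is not reported here and was left out of their sum. The genes and lists were chosen with earlier results of these data known. Named genes were the 10 members, 14 list genes fixed by name (1 of them, Txnrd1, without a row), the 2 list genes with the smallest p in each direction, and the 3 genes most alike in profile to Nfe2l2, Hmox1 and Gpx1. Slc3a2, Txn2 and Tkt were added after their values were seen.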

Additional observations from a re-analysis of the deposited data

How the results depend on the processing

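The count of genes past the adjusted threshold (0 of 18007) was the same under all alternatives other than leaving out E3–E12 diet replicate 3, which gave 1 gene, Bicra (range 0 to 1 with a library left out). None of the 10 members and none of the 53 list genes passed under any of them. Genes with an unadjusted p under 0.05 numbered 268, with 143 when only genes with a mean of at least 100 were kept (fewer genes tested), 478 when the fit held a replicate block, and 188 to 878 with a library left out, the most without control replicate 1. Among the members the count was 1 (Gpx1), 0 with a pseudocount of 10 and 0 without the trend, and 0 to 2 with a library left out. Without control replicate 1, or E3–E12 diet replicate 2 or 3, it was 0, and without E3–E12 diet replicate 1 it was 2, Nqo1 and Sod1. Among list genes it was 1 (Gsr), 2 with a pseudocount of 10, with no filter and after quantile normalization (Gsr and Sod3), 3 with the block (also Slc3a2), and 1 to 4 with a library left out. Without E3–E12 diet replicate 3 the 1 was Sod3, as Gsr no longer had such a p (0.0523). Why these counts moved was not tested.

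Samples with the same replicate number deviated from their group means with correlations of 0.26, 0.035 and 0.14 across genes, so the numbers were not taken to pair the libraries. The best match in the other group had the same number for control replicates 1 and 3 and for E3–E12 diet replicates 1, 2 and 3. Control replicate 2 was most like E3–E12 diet replicate 3. Whether libraries of the same number share a batch was not tested. The block left the log2 fold changes as they were and changed no adjusted call.

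Scaling each library to the same total moved the median log2 fold change of all genes by 0.11. Directions turned for Gpx4 with a pseudocount of 0.5 (0.035), for Keap1 (-0.66), Bach1 (-0.033), Cul3 (0.062) and Sqstm1 (0.11) after quantile normalization, and for Cul3 (0.11), Sqstm1 (0.045) and Prdx1 (0.088) with equal totals. With a library left out the log2 fold change turned for Nfe2l2 (-0.25 to 0.48), Keap1 (-1.35 to 1.54), Hmox1 (-0.80 to 0.15), Bach1 (-0.56 to 0.78), Mafg (-0.47 to 0.31), Cul3 (-0.44 to 0.48), Sqstm1 (-0.38 to 0.45), Slc7a11 (-0.38 to 0.55), Gpx4 (-2.67 to 1.26), Srxn1 (-0.057 to 1.43), Prdx1 (-0.39 to 0.26) and G6pdx (-0.20 to 0.82). The 5 ratios, added after the data were seen, kept their direction under every setting that could be computed. Much of this was fixed by their choice, because leaving out 1 library cannot turn a ratio whose groups do not overlap. The filter, trend and block settings left the ratios unchanged, so their stability is not read as support. The median standard error of the members' log2 fold changes was 0.57, and differences well above that size did not reach the adjusted threshold. Gsr, with a log2 fold change of 2.57, had an adjusted p of 0.999 from limma.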

Other observations

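Outside the comparison of the diets, the 10 genes differed in how much they spread among litters of 1 group. Sod2 had the smallest coefficient of variation in both groups (14.6% in controls and 23.6% in E3–E12 diet mice), while that of Nfe2l2 was 52.5% and 38.7% and that of Hmox1 57.6% and 66.7%. Control replicate 1 held the lowest value of 4 of the 10 genes (Nfe2l2, Hmox1, Sod1 and Gpx1) and the highest of none, and it also had the lowest microglial marker sum, 75754 normalized counts. The part of that sum in these values was not tested.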
